A study of Mus musculus with 9 samples.

Results

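Thalamic marker genes were followed array by array in RNA of the mouse substantia nigra. The genes were Tcf7l2, Rora, Lhx9, Prkcd, Gbx2 and Calb2, which are 6 of the 17097 genes named by the arrays, and all of their probe sets were taken, 16 of 45037. A probe set is a group of short probes that together measure a transcript. The genes stand as a sign of neighbouring thalamus and were chosen by the values of Tcf7l2, Rora and Lhx9, which were high in the 1 mg/kg-labelled arrays, so their differences between those arrays and the others are a description and carry no test.

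Mice of the Swiss Webster strain received daily school-day injections over 3 months, beginning on postnatal day 28, of saline or of methylphenidate (MPH) at 1 mg/kg or 10 mg/kg. The substantia nigra, the midbrain region whose dopamine neurons project to the striatum, was dissected after 7 drug-free days. Each group had 3 Affymetrix HT MG-430 PM arrays, 9 in all, and each array label names a mouse without saying whether tissue was pooled, so a p-value here measures only the spread between arrays. Groups carry the doses of the deposited labels, and in the study's supplementary tables the 2 MPH doses stand the other way round, so a dose is given throughout as the label of an array.

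The thalamus lies above and in front of the midbrain, and its relay neurons pass sensory and motor signals on to the cortex. Its neurons are specified by transcription factors, among them Tcf7l2, a nuclear partner of beta-catenin in Wnt signalling that stays on in mature thalamic and habenular neurons, the LIM homeodomain factor Lhx9 and the homeodomain factor Gbx2. Rora, a nuclear receptor, and Prkcd, a protein kinase C isoform, are well expressed in sensory relay nuclei, while Calb2 encodes calretinin, a calcium-binding protein found in midline thalamus and in many other neurons.

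Values are log2 intensities, so a difference of 1 is a doubling. Array medians ranged over 4.49 to 4.53. Control probe sets that match no mouse transcript had a 95th percentile of 3.59, which served as the background level, and 14 of the 16 member probe sets had a mean above it. Th and Slc6a3, which define dopamine neurons, were well above it on every array, with lowest values of 10.31 and 11.63. The probe sets at the 3' and 5' ends of Actb differed by 1.04 to 1.19 in the 1 mg/kg-labelled arrays and by 1.03 to 1.12 in those labelled 10 mg/kg, compared with 0.88 to 0.93 in the saline arrays. For Gapdh the groups overlapped, at 0.22 to 0.41 and 0.28 to 0.37 for the 2 labels and 0.23 to 0.39 in saline. In whole tissue, fewer cells of a type and less RNA per cell cannot be told apart.

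The 3 genes that led to the choice are transcription factors. Tcf7l2 had values of 9.73, 8.39 and 9.72 in the saline arrays, 10.48, 10.38 and 10.15 in the 1 mg/kg-labelled arrays and 8.73, 10.18 and 9.54 in those labelled 10 mg/kg (probe set 1429428_PM_at). The 1 mg/kg-labelled arrays all lay above the 3 saline arrays, while replicate 2 of the 10 mg/kg-labelled arrays lay just above the lowest of them. The mean was 10.33 ± 0.17 in the 1 mg/kg-labelled arrays and 9.28 ± 0.77 in the saline arrays (SD, n = 3 each), a difference of 1.05 with a standard error of 0.45, or 2.08-fold. Standard errors of differences here and below come from a linear model (limma) of all 9 arrays, not from the SDs printed beside them.

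Rora had values of 9.37, 8.12 and 8.97 in the saline arrays, 9.66, 9.94 and 9.38 in the 1 mg/kg-labelled arrays and 8.18, 9.30 and 8.87 in those labelled 10 mg/kg (probe set 1420583_PM_a_at). The 1 mg/kg-labelled arrays were again the highest, but their lowest value was almost equal to saline replicate 1. The difference of their mean, 9.66 ± 0.28, from that of saline, 8.82 ± 0.64, was 0.84 with a standard error of 0.38 (SD, n = 3 each).

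Lhx9 was much closer to background. It had values of 4.67, 3.67 and 5.16 in the saline arrays, 5.69, 5.66 and 5.41 in the 1 mg/kg-labelled arrays and 4.63, 5.23 and 4.62 in those labelled 10 mg/kg (probe set 1419324_PM_at). The 1 mg/kg-labelled arrays overlapped with neither other group, and saline replicate 2 lay next to the background level. The mean was 5.59 ± 0.15 in the 1 mg/kg-labelled arrays and 4.50 ± 0.76 in the saline arrays (SD, n = 3 each), a difference of 1.09 with a standard error of 0.36.

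Gbx2 and Prkcd, whose values were not part of the reason for the choice but come from the same arrays, were described in the same way. Gbx2 had values of 4.67, 3.58 and 5.54 in the saline arrays, 6.77, 6.33 and 6.11 in the 1 mg/kg-labelled arrays and 4.32, 5.92 and 4.83 in those labelled 10 mg/kg (probe set 1420337_PM_at). The 1 mg/kg-labelled arrays were the 3 highest of the 9, and saline replicate 2 did not exceed the background level. The difference of the 1 mg/kg-labelled arrays from saline was 1.81 with a standard error of 0.55, the largest of the 16 member probe sets.

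Prkcd varied most among arrays of a group. Its values were 9.76, 6.56 and 8.73 in the saline arrays, 9.57, 9.88 and 8.96 in the 1 mg/kg-labelled arrays and 6.92, 9.37 and 8.46 in those labelled 10 mg/kg (probe set 1422847_PM_a_at). Saline replicate 1 was above 2 of the 1 mg/kg-labelled arrays, so the groups overlapped, and the difference of 1.12 had a standard error of 0.89. Without saline replicate 2 that difference was 0.22.

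Calb2, the calcium-binding protein, went the other way. Its values were 9.71, 10.54 and 9.70 in the saline arrays, 9.37, 8.74 and 9.52 in the 1 mg/kg-labelled arrays and 9.94, 9.45 and 9.55 in those labelled 10 mg/kg (probe set 1451129_PM_at). All 1 mg/kg-labelled arrays were below all saline arrays, with a mean of 9.21 ± 0.41 in the 1 mg/kg-labelled arrays and 9.98 ± 0.49 in saline (SD, n = 3 each) and a difference of -0.77 with a standard error of 0.30. Calb2 thus went against the label of the set, and the other 5 genes shared a direction.

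**Figure D1:**
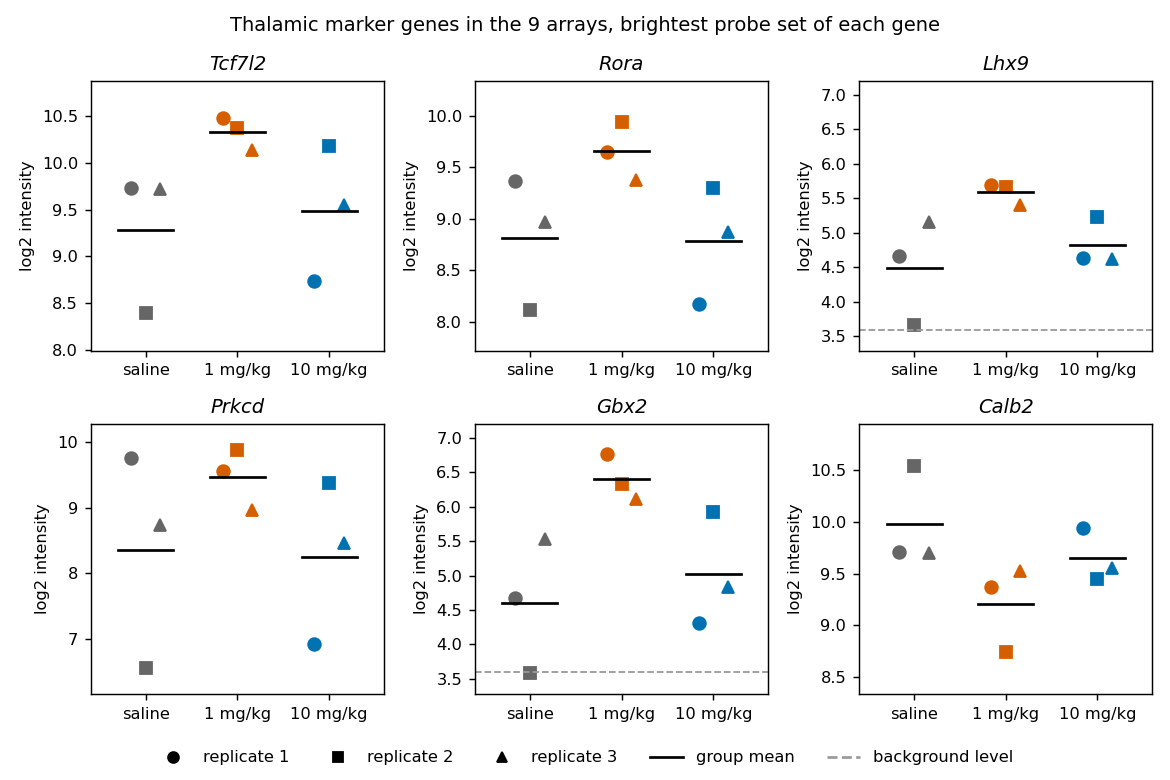
Log2 intensity of the brightest probe set of each gene in the 9 arrays, by the dose on the label, with each panel on its own scale. Marker shapes give the replicate number, black lines the group means and the dashed line, within the range of the Lhx9 and Gbx2 panels only, the background level of 3.59. The 1 mg/kg-labelled arrays are the highest group for 5 genes and the lowest for Calb2.

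Of the 6 genes, 4 were higher in the 1 mg/kg-labelled arrays than in saline with no overlap of the groups, and 1 was lower. Over all 17097 genes, taking the brightest probe set of each, 8.97% were higher and 15.3% lower without overlap. Between the 1 mg/kg-labelled arrays and those labelled 10 mg/kg, Rora, Lhx9 and Gbx2 were higher without overlap and no member was lower, where 8.67% of all genes were higher and 8.90% lower. Since the choice rested on these arrays, nothing is read from these counts.

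Several of the genes have further probe sets, and these did not all follow the brightest. The other 3 of Tcf7l2 had differences of 1.28, 1.48 and 0.77 between the 1 mg/kg-labelled arrays and saline. For Rora, 1436326_PM_at differed by 0.55 and 1436325_PM_at by 0.19, while 1458145_PM_at was lower in all 1 mg/kg-labelled arrays than in saline, by -0.19. The remaining probe set of Rora and 1431598_PM_a_at of Lhx9 lay near background, with differences of 0.03 and -0.09. Prkcd 1442256_PM_at differed by 0.58 and Lhx9 1441313_PM_x_at by 0.45. Of the 16 probe sets, 13 were higher and 3 lower in the 1 mg/kg-labelled arrays, with 8 and 2 showing no overlap, where 10.7% and 12.4% of all probe sets did so.

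**Figure D2:**
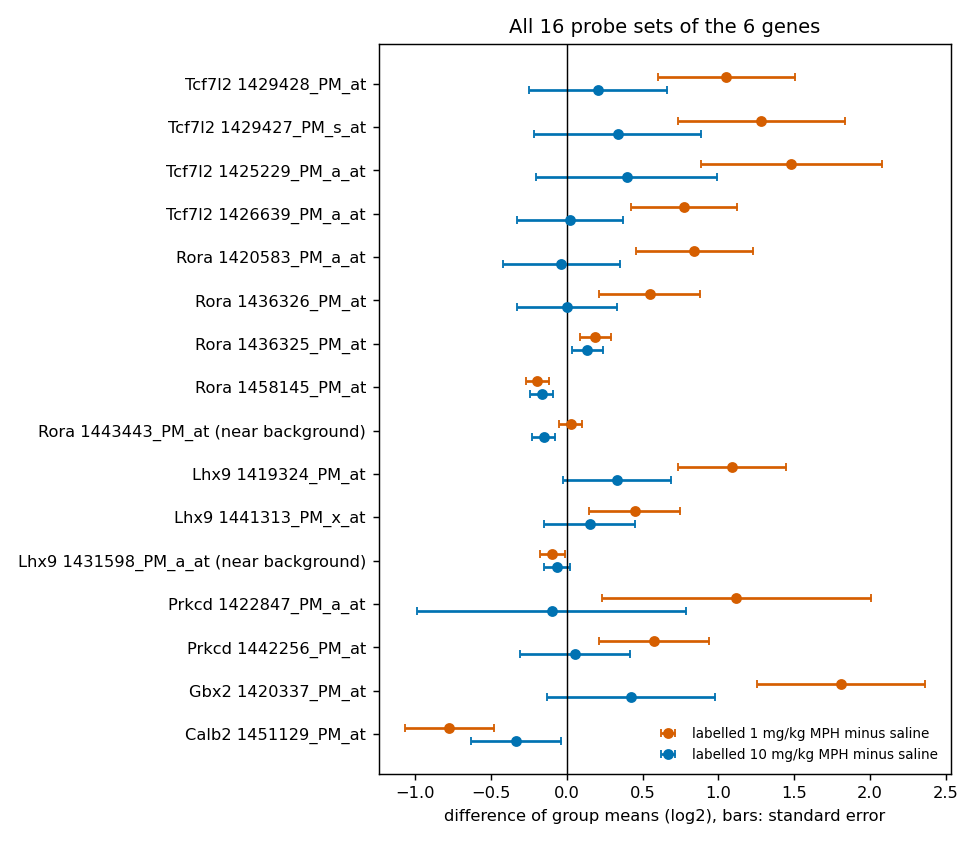
Difference of group means on the log2 scale (horizontal axis) for the 16 probe sets of the 6 genes, for the 1 mg/kg-labelled and the 10 mg/kg-labelled arrays minus saline, with standard errors from limma as bars. The 4 probe sets of Tcf7l2 lie between 0.77 and 1.48 for the label 1 mg/kg, whereas those of Rora spread between -0.19 and 0.84.

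The starts of the genes were searched for short motifs because several members are, or work with, sequence-specific factors. RefSeq promoter windows of 300 bases on GRCm38.p6, from 250 bases before a start to 50 after it, were found for 5 of the 6 genes, 7 windows in all. Both strands were searched for CTTTGTT and CTTTGAT, which TCF/LEF factors such as Tcf7l2 bind, for AGGTCA, the core bound by nuclear receptors such as Rora, and for TAATTA, a common homeodomain core. CTTTGTT occurred in 3 of the 7 windows, 1 each of Tcf7l2, Lhx9 and Prkcd, and the other motifs in none. Of all 32851 windows of this length, 5.85% held CTTTGTT, 3.73% CTTTGAT, 16.3% AGGTCA and 5.29% TAATTA. The 3 windows are shown with the match in capitals, which is a match of letters and no measured binding. The window of Tcf7l2 is its second, at chr19:55895071-55895370 on the plus strand, with the match 14 bases before the start. That of Lhx9 is at chr1:138842395-138842694 on the minus strand, 117 bases before the start. That of Prkcd is its first, at chr14:30610261-30610560 on the minus strand, with the reverse complement AACAAAG 242 bases before the start.
Tcf7l2: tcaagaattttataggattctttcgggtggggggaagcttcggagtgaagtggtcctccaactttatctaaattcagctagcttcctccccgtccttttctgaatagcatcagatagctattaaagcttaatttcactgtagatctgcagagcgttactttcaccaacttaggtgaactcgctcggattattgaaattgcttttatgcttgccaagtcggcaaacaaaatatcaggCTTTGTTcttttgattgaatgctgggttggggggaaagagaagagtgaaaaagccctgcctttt
Lhx9: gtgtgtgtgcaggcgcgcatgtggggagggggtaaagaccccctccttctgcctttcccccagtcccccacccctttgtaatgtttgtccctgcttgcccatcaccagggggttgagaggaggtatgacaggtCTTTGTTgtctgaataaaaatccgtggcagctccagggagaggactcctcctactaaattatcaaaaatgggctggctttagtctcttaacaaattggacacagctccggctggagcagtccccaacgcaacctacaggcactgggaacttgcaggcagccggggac
Prkcd: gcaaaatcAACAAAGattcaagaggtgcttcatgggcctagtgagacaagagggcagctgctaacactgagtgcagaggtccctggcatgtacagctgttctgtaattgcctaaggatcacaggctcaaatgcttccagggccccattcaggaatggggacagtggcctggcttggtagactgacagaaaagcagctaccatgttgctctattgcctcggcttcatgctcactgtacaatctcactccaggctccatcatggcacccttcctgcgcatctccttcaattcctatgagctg

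The 10 mg/kg-labelled arrays were then compared with saline, a comparison that shares the saline arrays but was not used to pick the genes, and this was tested. None of the 16 member probe sets passed in limma with a block for the replicate number, with adjusted p between 0.537 and 0.999, and 0.00% of all 45037 probe sets were called. At an unadjusted p of 0.05 the count of members was 0 with the block and 2 without it, where 9.59% and 17.7% of all probe sets passed. Without the block 115 probe sets were called over all genes, which is 0.255%, and the lowest adjusted p of a member was 0.206.

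Tcf7l2 averaged 9.49 ± 0.73 in the 10 mg/kg-labelled arrays and 9.28 ± 0.77 in saline (SD, n = 3 each). The difference was 0.20, with a 95% interval of -0.85 to 1.26 and an adjusted p of 0.907 in limma. For Rora the mean was 8.78 ± 0.57 in the 10 mg/kg-labelled arrays and 8.82 ± 0.64 in saline, with a difference of -0.04 and an interval of -0.93 to 0.86 (limma, adjusted p = 0.982). The groups of both genes overlapped.

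For Lhx9 the difference was 0.33 (interval -0.50 to 1.16, limma adjusted p = 0.783) and for Gbx2 it was 0.43 (interval -0.86 to 1.71, limma adjusted p = 0.828). For Prkcd, -0.10 had the widest interval, -2.17 to 1.97 (limma adjusted p = 0.978). Calb2 differed by -0.33 (interval -1.02 to 0.36, limma adjusted p = 0.731). Two-sided exact permutation tests of 3 arrays against 3, which cannot go below 0.1, gave p between 0.4 and 0.9 over the 6 genes. The intervals of Tcf7l2, Lhx9, Prkcd and Gbx2 reached above 1 and those of Prkcd and Calb2 below -1, so they do not show that the groups were alike. Only Rora probe sets 1458145_PM_at and 1443443_PM_at did not overlap with saline, both lower, which is 2 of 16 beside 13.1% of all probe sets. The mean of 1443443_PM_at over the arrays, 3.04, was below the background level. Higher without overlap were 0 of 16, beside 10.3% of all probe sets.

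Saline replicate 2 and replicate 1 of the 10 mg/kg-labelled arrays stood apart from the other 7 arrays in these genes. Saline replicate 2 was the lowest array for Tcf7l2, Rora, Lhx9, Prkcd and Gbx2 and the highest for Calb2. Together the pair held the 2 lowest values of 4 members and the 2 highest of Calb2. Over all genes, 6.83% had them as the 2 lowest and 6.05% as the 2 highest. The pair was singled out after its values for these genes were seen, so nothing is read from these shares. For Lhx9 alone, replicate 3 of the 10 mg/kg-labelled arrays was marginally lower than replicate 1. Over all probe sets, the mean correlation of an array with the other 8 was between 0.9937 and 0.9964, and it was lowest for replicate 1 of the 10 mg/kg-labelled arrays.

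The mean of Tcf7l2, Rora and Lhx9 put the arrays in order. It was 7.92, 6.72 and 7.95 in the saline arrays, 8.61, 8.66 and 8.31 in the 1 mg/kg-labelled arrays and 7.18, 8.24 and 7.68 in those labelled 10 mg/kg. Highest were the 1 mg/kg-labelled arrays, with replicate 2 of the 10 mg/kg-labelled arrays next at 8.24. The spread within the 1 mg/kg-labelled arrays (SD 0.19) was smaller than within those labelled 10 mg/kg (SD 0.53) or saline (SD 0.70), a difference between groups of 3 arrays that was not tested.

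Leaving out the pair, a choice made after seeing the values, lowered the difference of this mean between the 1 mg/kg-labelled arrays and saline to 0.59, against 0.99 with all arrays. Between the 1 mg/kg-labelled and the 10 mg/kg-labelled arrays it was 0.57, against 0.83 with all arrays. Between those labelled 10 mg/kg and saline it was 0.02, against 0.17. For the label 1 mg/kg the single genes without the pair differed from saline by 0.61 (Tcf7l2), 0.49 (Rora), 0.67 (Lhx9), 0.22 (Prkcd), 1.30 (Gbx2) and -0.49 (Calb2), each closer to 0 than with all arrays and with the same sign. In that comparison the change comes from saline replicate 2, the only array of the pair it holds. For the label 10 mg/kg the differences of group means without the pair were 0.14 (Tcf7l2), -0.08 (Rora), 0.02 (Lhx9), -0.33 (Prkcd), 0.27 (Gbx2) and -0.20 (Calb2), and no member passed limma there.

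**Figure D3:**
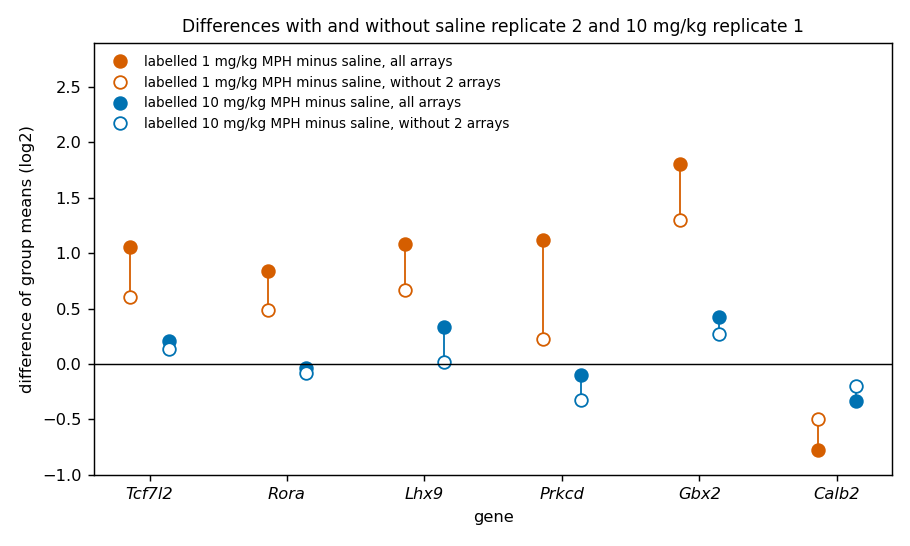
Difference of group means on the log2 scale (vertical axis) for the 6 genes, with all arrays (filled) and without saline replicate 2 and replicate 1 of the 10 mg/kg-labelled arrays (open). For the label 1 mg/kg the largest shift is that of Prkcd, at 0.22 without the pair and 1.12 with all arrays, and no gene changes sign.

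Within groups these genes varied more than most. The median SD over all genes was 0.087 in saline, 0.089 in the 1 mg/kg-labelled arrays and 0.089 in those labelled 10 mg/kg. All 6 members exceeded the 90th percentile of SDs in saline (0.204) and in the 10 mg/kg-labelled arrays (0.217), and 4 did so in the 1 mg/kg-labelled arrays (0.198), the exceptions being Tcf7l2 and Lhx9.

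A further 17 genes of thalamic neurons were listed with earlier results known, of which 16 were measured. Their median difference was 0.63 for the 1 mg/kg-labelled arrays minus saline and -0.01 for those labelled 10 mg/kg minus saline, compared with 1.07 and 0.08 for the 6 members and -0.02 and -0.02 for all genes. In the 1 mg/kg-labelled arrays 15 of the 16 were higher than saline, where 43.7% of all genes were. Of the 16, 7 were higher without overlap, where 8.97% of all genes were. In the 10 mg/kg-labelled arrays 8 of the 16 were higher than saline, where 7522 of all 17097 genes were. There 3 were higher without overlap, where 1496 of all genes were. The list was made with earlier results of these data known, so nothing is read from these counts. None of the 16 passed limma in either comparison, with or without the block. Without the pair of arrays the medians were 0.43 and -0.04. The summed level of the list was 12.14 to 12.74 in saline, 12.75 to 13.08 in the 1 mg/kg-labelled arrays and 12.33 to 12.81 in those labelled 10 mg/kg. The first 2 groups were thus only just apart, and a summed level weighs the brightest genes most, such as Slc17a6.

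The largest differences in that list belonged to Shox2, Lhx2, Tnnt1 and Synpo2. Shox2, a homeodomain factor, was at 1.62 and 0.28 for the labels 1 mg/kg and 10 mg/kg. Lhx2, a LIM homeodomain factor, was at 1.33 and 1.30. Tnnt1, a troponin, was at 1.30 and -0.28, and Synpo2, an actin-binding protein, at 1.29 and -0.03. For the label 1 mg/kg each of these genes overlapped with saline, with standard errors of 1.01, 0.58, 0.79 and 0.76 in that order. Shox2 had values of 8.75, 5.30 and 8.27 in the saline arrays, 9.23, 9.52 and 8.44 in the 1 mg/kg-labelled arrays and 6.20, 8.97 and 8.00 in those labelled 10 mg/kg. It was thus lowest in the same pair of arrays as Prkcd, as were 11 of the 16 genes. Lhx2 differed from them in that replicate 1 of the 10 mg/kg-labelled arrays had its highest value, 7.33. Without the pair of arrays the difference for the label 1 mg/kg was 0.55 for Shox2, 0.57 for Tnnt1, 0.50 for Synpo2 and 0.88 for Lhx2, so their order changed, and that of Lhx2 for the label 10 mg/kg was 0.41.

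Slc17a6, the vesicular glutamate transporter of thalamic and many other subcortical neurons, differed by -0.05 and 0.04 for the 2 labels and ranged between 10.82 and 11.36 over the 9 arrays. Lef1, which like Tcf7l2 pairs with beta-catenin, had values of 3.46, 3.16 and 3.37 in the saline arrays, 3.79, 4.16 and 3.99 in the 1 mg/kg-labelled arrays and 3.48, 3.57 and 3.60 in those labelled 10 mg/kg. Each 1 mg/kg-labelled array lay above both other groups, and no saline array was above the background level, so no size is given for the difference.

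**Figure D4:**
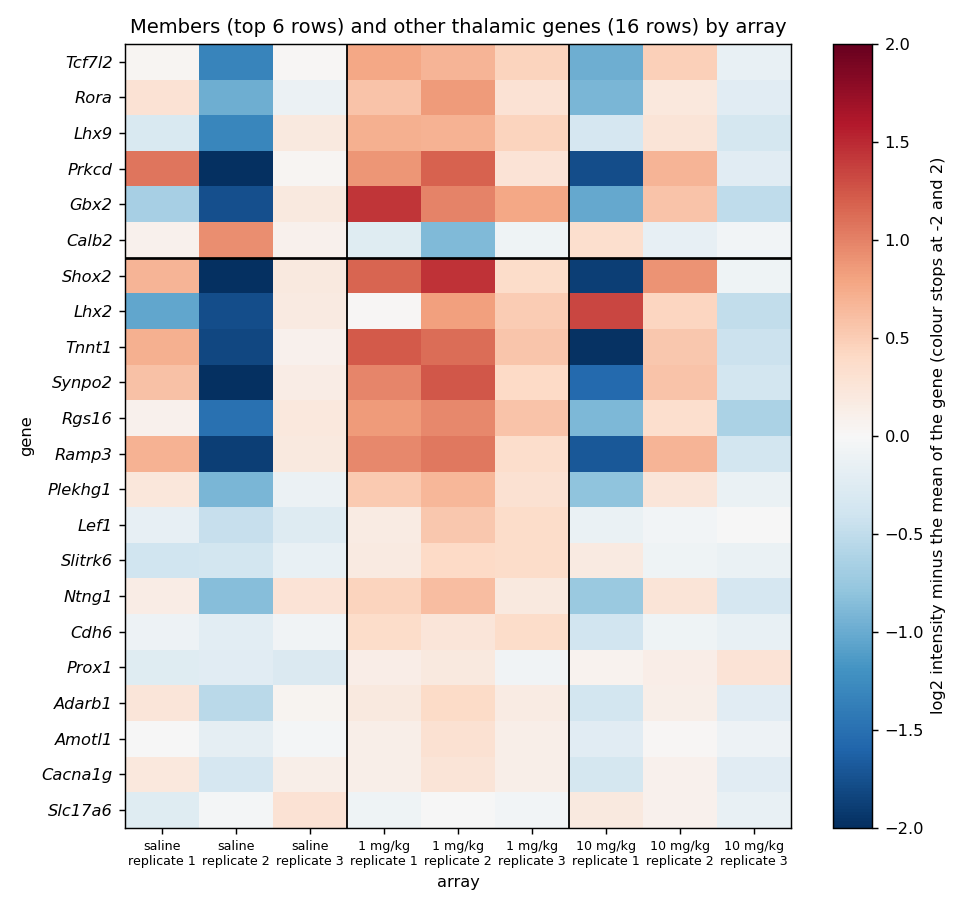
Log2 intensity minus the mean of each gene over the 9 arrays, for the 6 members (top rows) and 16 other thalamic genes, with arrays in columns by the dose on the label. Blue columns for saline replicate 2 and replicate 1 of the 10 mg/kg-labelled arrays run through most rows, with Calb2 reversed in both, and with Lhx2, Slitrk6, Prox1 and Slc17a6 above their own means in the second.

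The genes whose profile over the 9 arrays was most like the mean of Tcf7l2, Rora and Lhx9 were Plekhg1, Pdp1, Ptpn3, Ntng1, Vav3, Zmat4, Clmn, Rgs16, Mctp2 and Zfp804a, out of 12578 genes above background. Likeness was the root mean square difference of profiles centred on their means, which ran between 0.153 for Plekhg1 and 0.227 for Zfp804a, while a flat profile would give 0.607. Plekhg1, Ntng1 and Rgs16 were also in the thalamic list. That list was made with earlier results known, so nothing is read from this overlap. The other measured genes of that list ranked between 37 (Adarb1) and 12250 (Lhx2) of the 12578, with Slc17a6 at 8096 and Shox2 at 11897. Among the other members the root mean square difference was 0.444 for Gbx2, 0.620 for Prkcd and 1.04 for Calb2. The last 2 were further away than a flat profile, but the measure counts the size of swings as well as their direction. Prkcd was lowest in the same 2 arrays as the mean of Tcf7l2, Rora and Lhx9, with a wide range of 3.32 over the arrays. Calb2 was highest in those 2 arrays.

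Markers of other neighbouring tissues also differed between arrays. The prethalamus and zona incerta list had medians of 0.41 and 0.20 for the labels 1 mg/kg and 10 mg/kg, with Dlx1, a homeodomain factor of inhibitory neurons, at 1.16 and 1.06. Of its 6 genes, 4 were higher and 2 lower for the label 1 mg/kg, 5 and 1 for 10 mg/kg, and 0 were called. Habenula genes, of which 2 of 5 were above background, had medians of -0.24 and -0.08. Pretectal and collicular genes, with 1 of 3 above background, had medians of 0.04 and -0.06, and the 2 subthalamic and mammillary genes were not above background. Cortical and hippocampal genes had medians of -0.02 and 0.48, and their summed level was highest, at 9.80, in replicate 1 of the 10 mg/kg-labelled arrays, compared with 9.21 to 9.53 in the other 8. Without the pair of arrays the median of the cortical list for the label 10 mg/kg was 0.14.

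Serotonin neurons of the raphe were seen through Tph2, which makes serotonin, and Slc6a4, its transporter, the 2 measured genes of 4. Tph2 had values of 4.24, 7.47 and 6.96 in the saline arrays, 3.88, 3.20 and 3.47 in the 1 mg/kg-labelled arrays and 5.21, 3.61 and 3.32 in those labelled 10 mg/kg. Their summed level ranged over 5.16 to 8.04 in saline, over 4.18 to 4.86 in the 1 mg/kg-labelled arrays and over 4.44 to 5.83 in those labelled 10 mg/kg, and it was highest in saline replicate 2, where Tcf7l2 was lowest.

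All 10 dopamine neuron genes were lower in both MPH groups than in saline, with medians of -0.65 and -0.49 for the labels 1 mg/kg and 10 mg/kg. None was called with the block, and 4 and 3 were called lower without it, where 16 and 37 of all 17097 genes were called lower and 0.120% and 0.255% of all probe sets were called in either direction. Without the pair of arrays 0 probe sets were called in either comparison, also without the block. Their summed level was 13.67 to 13.70 in the 1 mg/kg-labelled arrays and 13.61 to 13.76 in those labelled 10 mg/kg, against 13.99 to 14.18 in saline. The part of neighbouring tissue, of RNA quality and of the pair of arrays in the values of the 6 genes was not tested.

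**Figure D5:**
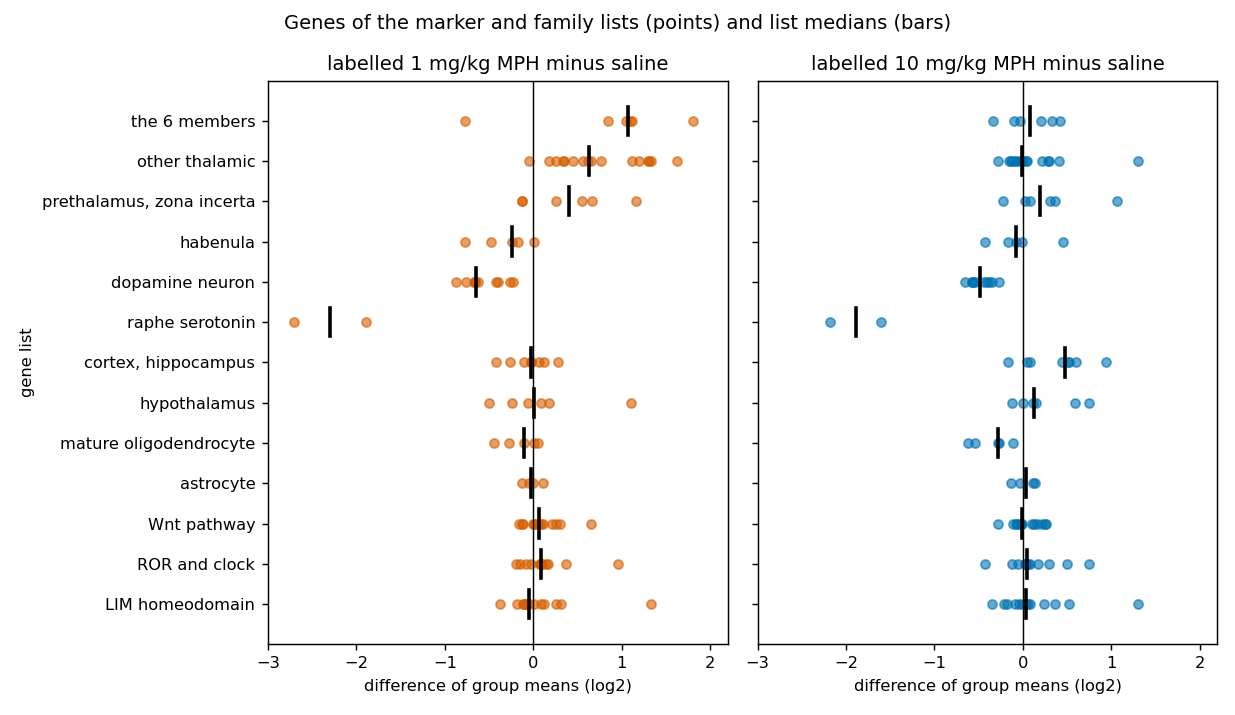
Difference of group means on the log2 scale (horizontal axis) for the 1 mg/kg-labelled arrays (left) and 10 mg/kg (right) minus saline, with a point per gene and a bar at the median of each list. The members and the other thalamic genes have medians of 1.07 and 0.63 on the left and 0.08 and -0.01 on the right, whereas the dopamine neuron and raphe lists lie below 0 in both.

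Genes related to the members by family or pathway were given from lists. Of 13 measured Wnt pathway genes, 9 were higher and 4 lower in the 1 mg/kg-labelled arrays than in saline, with a median of 0.07, and for the label 10 mg/kg it was 6 and 7 with a median of -0.01. Axin2, a feedback target of beta-catenin, differed by 0.30 and 0.26. Among nuclear receptor and clock genes Rorb, the close relative of Rora, had the largest differences, 0.96 and 0.75, with medians of the list at 0.08 and 0.05. None of these genes was called with or without the block.

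For Rorb, every MPH array was above every saline array, with values of 7.71, 8.11 and 7.96 in the 1 mg/kg-labelled arrays and 7.53, 7.79 and 7.81 in those labelled 10 mg/kg, against 7.43, 6.82 and 6.64 in saline. Among the LIM homeodomain genes other than Lhx9, only Lhx2 had a difference above 1, and the list medians were -0.05 and 0.04. The other protein kinase C genes had medians of -0.07 and 0.05, and Calb1 and Pvalb, the other calcium-binding proteins, had medians of 0.15 and 0.11, opposite in sign to Calb2.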

How the data were processed

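The 9 arrays held substantia nigra RNA of mice labelled as given saline or MPH at either dose. The authors made the deposited log2 intensities with Robust Multichip Average, which subtracts background, gives all arrays the same distribution and summarizes probe sets. A batch correction of the 3 replicates with ComBat is named too, and whether the deposited values include it is not given in the sources used here. Of 45141 probe sets, 104 controls were left out. Platform annotation named a single gene for 28898 probe sets, several for 551 and none for 15588, and only single-gene probe sets were used for naming.

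The remaining 45037 probe sets went into 1 linear model (limma 3.58.1, R 4.3.3) of the 3 groups, with a block for the replicate number, following the batch of replicates in the methods. P-values were adjusted by Benjamini and Hochberg at 0.05. The script was tested on simulated data. Averages of same-numbered arrays were nearly equal in the deposited values (median F of the replicate number 0.073), closer than unrelated arrays would give. A fit without the block does not account for such an equalization, so its p-values can be too small and its calls too many. Such values cannot show whether same-numbered arrays were paired, so the pairing rests on the methods only.

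The brightest probe set stood for a gene, with at most 4 genes named per list by the largest difference, plus defining markers. The 10 genes most alike were chosen by their distance to the profile of Tcf7l2, Rora and Lhx9. Named genes were then taken from those the rule gave. The members and lists were chosen with earlier results of these data known. Summed levels are the log2 of summed linear intensities. Alternatives were no block, a second quantile normalization, median centring, only probe sets above background, an intensity trend with the robust option, array weights, only the groups compared, averaging a gene's probe sets and each array left out. The number of arrays limits the precision.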

Additional observations from a re-analysis of the deposited data

How the results depend on the processing

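With the replicate block, 0 probe sets were called in each of the 3 comparisons. With no replicate block, 54 were called for the label 1 mg/kg and 115 for 10 mg/kg against saline, and an intensity trend with the robust option called 2 and 1, which name no gene (1436359_PM_at and 1456781_PM_at, named after their values were seen). Leaving out single arrays gave 0 to 1 calls in each comparison with saline, the 1 being Inpp4a without saline replicate 2, and 0 between the 2 doses. No member was called for 10 mg/kg under any alternative. After the group mean of each probe set was subtracted, the remainders of same-numbered arrays correlated at -0.626 to -0.132. The median F of the replicate number was 0.073, so p-values without the block can be too small. For the label 1 mg/kg minus saline every member kept its sign under the second quantile normalization, median centring, averaged probe sets and left-out arrays, the alternatives run for it. With a gene's probe sets averaged, the differences for Rora and Lhx9 were 0.28 and 0.48 from saline and 0.33 and 0.34 from the label 10 mg/kg. With single arrays left out, the mean of Tcf7l2, Rora and Lhx9 differed by 0.590 to 1.20 for 1 mg/kg and by -0.237 to 0.427 for 10 mg/kg. For 10 mg/kg minus saline, leaving out single arrays turned the sign of each member, over ranges of -0.427 to 0.731 for Tcf7l2, -0.587 to 0.405 for Rora, -0.203 to 0.760 for Lhx9, -1.38 to 0.943 for Prkcd, -0.29 to 1.02 for Gbx2 and -0.58 to 0.114 for Calb2. Array weights turned Rora to 0.00536. Without saline replicate 2 and replicate 1 of the label 10 mg/kg, an alternative chosen after seeing the data, Lhx9 was at -0.16 and Calb2 at 0.028 with the block. Groups of 3 arrays limit all of these values.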

Other observations

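Some hypothalamic genes varied widely between arrays without following the groups. From the lowest to the highest array Pmch spanned 5.78 and Hcrt 3.56, whereas Pomc, Oxt and Avp spanned 0.45, 0.56 and 0.78. Pmch, the precursor of melanin-concentrating hormone, had values of 11.58, 6.86 and 7.75 in the saline arrays, 10.58, 10.50 and 8.44 in the 1 mg/kg-labelled arrays and 5.85, 10.95 and 11.63 in those labelled 10 mg/kg. The 2 lowest arrays were the pair that was also lowest for Tcf7l2. Saline replicate 1 and replicates 2 and 3 of the 10 mg/kg-labelled arrays, however, were higher than every 1 mg/kg-labelled array. Among mature oligodendrocyte genes, Mbp, a myelin protein, ranged between 13.05 and 13.71, with the lowest value in replicate 1 of the 10 mg/kg-labelled arrays.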
